A study of Mus musculus with 4 samples.

Results

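Chaperones and heat shock proteins were examined in RNA from STMN1-/- and STMN1+/+ mouse embryo fibroblasts (MEFs), cells that lack or carry the gene for stathmin, a protein that destabilizes microtubules. The members were the array probes whose gene names begin with the heat shock protein, J-domain, chaperonin, protein disulfide isomerase or BAG stems, together with the heat shock factors, named regulators of the unfolded protein response (UPR) and the tubulin folding cofactors. The names matched 95 of the 19505 named genes on the array, or 175 of its 41174 probes, and 89 of the 95 genes could be tested. Both genotypes were C57BL/6, isolated from individual embryos of STMN1+/- crosses taken at mid-gestation, and STMN1 is disrupted by a neomycin cassette in the STMN1-/- cells. The labels name no treatment. STMN1-/- and STMN1+/+ RNA competed on every one of 4 Agilent 2-color arrays with probes of 60 bases. The STMN1-/- RNA carried Cy3 on replicates 1 and 2, while on replicates 3 and 4 it carried Cy5. Since the labels do not tie an array to an embryo or an RNA preparation, the p-values below reflect array-to-array spread, and this may be technical.

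Chaperones bind unfolded or partly folded proteins and keep them from aggregating. In the cytosol, HSP70 proteins work in an ATP cycle that is started by J-domain proteins and reset by nucleotide exchange factors such as the BAG and HSP110 proteins, and clients pass on to HSP90 or to the ring-shaped chaperonin CCT, which folds actin and tubulin. Tubulin then passes from CCT to the folding cofactors Tbca to Tbce, which assemble the αβ dimer that stathmin binds. The endoplasmic reticulum (ER) has its own HSP70 (Hspa5, BiP), HSP90 (Hsp90b1, GRP94) and protein disulfide isomerases, which the UPR sensors Atf6, Ern1 and Eif2ak3 adjust to load, and mitochondria have the Hspd1 and Hspe1 ring. Heat shock factors act on the cytosolic and mitochondrial genes through repeats of the letters GAA, and Atf6 and Xbp1 act on ER genes through other elements.

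Each value is the log2 ratio of STMN1-/- over STMN1+/+ signal, so that a value below 0 is lower expression in STMN1-/- cells. The 4 arrays are replicates, errors are standard errors (SE) from limma, on 4 arrays where no other number is given, and a gene passed the test at a limma adjusted p under 0.05 over all 27648 tested probes. Each gene is given by its brightest probe (highest mean signal over both genotypes). Across all 14979 named genes tested, 13.4% rose and 12.3% fell in STMN1-/- cells, 25.8% in either direction. Array medians of the log2 ratio were -0.01 to 0.00. Per array, 24808 to 25916 probes were well above background in STMN1-/- RNA and 25122 to 26029 in STMN1+/+ RNA, no spot was saturated (0 on each array), and 472 to 711 outlier spots per array were left out. Over probes, which are not independent replicates, the ratios of arrays with the same dye orientation correlated at r = 0.689 and 0.703, and those of opposite orientation at r = 0.445 to 0.489. For the Stmn1 probes, the log2 ratio was -2.16 (SE 0.06) for the dimmer and -0.39 (SE 0.07) for the brighter probe, below 0 on 4 of 4 arrays for each. The study raised a cross-match of its Stmn1 probe as a problem, so these values are a limited check of the labels. It stated that qRT-PCR and western blots found no Stmn1 mRNA or protein in STMN1-/- MEFs.

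All 8 fibroblast markers examined were well above background on every array in both genotypes, but marker levels were not equal. Of the fibroblast markers, 6 rose and 1 (Vim) fell in STMN1-/- cells, and their summed signal ranged from 3959505 to 6258162 in STMN1-/- and from 3710591 to 4356752 in STMN1+/+ cells. Of 6 epithelial markers, 5 were tested and all 5 fell (summed signal 46266 to 53241 against 60547 to 67999), while Epcam was at background in both and Cdh1 was not above background in STMN1-/- cells. Of 6 neural markers, 4 fell and 1 (Tubb3) rose (38951 to 43696 against 46599 to 50622), with Gfap at background in both and Sox2 not above background in STMN1-/- cells. Of 8 muscle markers, 3 rose and none fell (0), with summed signals that overlapped (59517 to 82283 against 53807 to 71275) and with Ckm and Myf5 at background. Of 4 tested macrophage markers, 1 rose and 1 fell, at near-equal sums (5429 to 6258 against 5442 to 6365). Whether these differences have a part in the chaperone results was not tested, and in bulk RNA fewer cells of a type and less RNA per cell cannot be told apart.

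Of the 89 tested members, 6 rose (6.74%, against 13.4% of all genes) and 10 fell (11.2%, against 12.3%). After normexp background correction and loess, 3 of the 89 rose and 11 fell, beside 5.34% and 5.52% of all genes. The members that rose were Hspa2, Hspa12b, Dnajb2, Dnaja4, Pdia5 and Xbp1, and those that fell were Hspa4l, Hsp90aa1, Hspb2, Cryab, Hspb1, Hspe1, Hspd1, Dnajc15, Dnajc9 and Cct6b. The changes were small, and only Hspa4l, Pdia5 and Hspa2 reached 1.5 fold. The median log2 ratio of the members was -0.04, beside 0.01 for all genes. In all, 62.9% of members lay below 0, beside 49.2% of all genes. Of the 80 members with a value on every array, 55.0% had the same sign on all 4, beside 50.9% of all such genes.

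**Figure D1:**
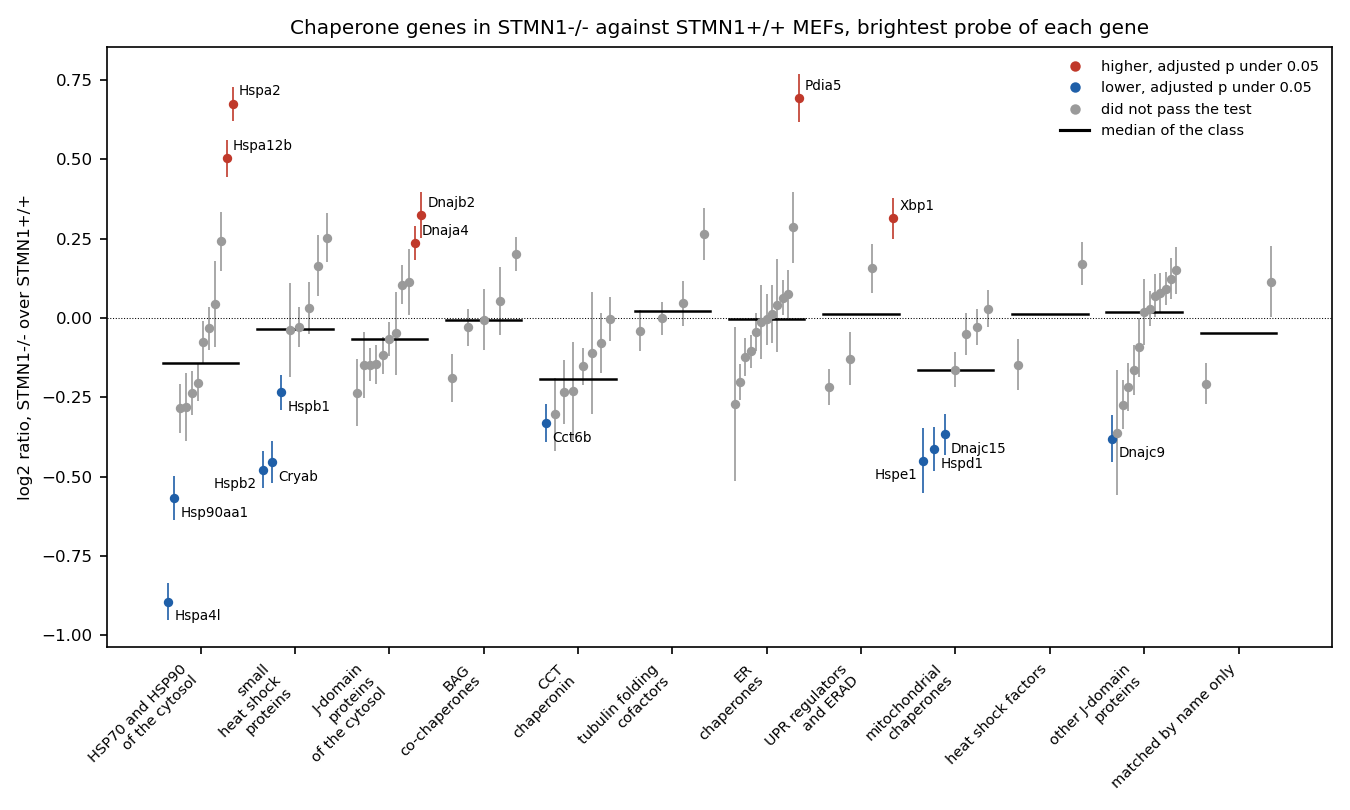
Log2 ratio of STMN1-/- over STMN1+/+ signal (y axis) for the brightest probe of each of the 89 tested chaperone genes, grouped by class (x axis). Points are limma means over the arrays, bars are SE, red and blue mark genes that rose or fell at an adjusted p under 0.05, and black lines are class medians. Hspa4l at -0.89 and Pdia5 at 0.69 are the extremes, and all 8 points of the CCT class lie below 0.

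The cytosolic HSP70 and HSP90 class held the widest spread, with 2 of 12 tested genes higher, 2 lower and a median of -0.14. Over all genes, 13.4% rose and 12.3% fell. Hspa4l, an HSP110-type nucleotide exchange factor for HSP70, was at -0.94, -0.92, -0.79 and -0.93 on replicates 1 to 4. All 4 of its probes were lower on every array, with means from -1.09 to -0.89, and by its brightest probe it fell 1.86 fold (log2 ratio -0.89, SE 0.06, adjusted p = 0.00141). Its relatives did not pass the test: Hspa4 was at -0.29 (SE 0.08, 3 arrays, adjusted p = 0.0719) and Hsph1, the other HSP110 protein of the cytosol, at -0.24 (SE 0.07, adjusted p = 0.0671), each below 0 on every array measured.

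Hsp90aa1, the stress-inducible HSP90 isoform, was at -0.60, -0.52 and -0.58 on replicates 1, 3 and 4, its spot on replicate 2 being an outlier. It fell 1.48 fold (log2 ratio -0.57, SE 0.07, 3 arrays, adjusted p = 0.0116). Hsp90ab1, the constitutive isoform, was at 0.14, -0.06, -0.11 and -0.11 and did not pass (adjusted p = 0.772). The second Hsp90ab1 probe split by dye, with 0.32 and 0.33 where STMN1-/- RNA was in Cy3 and -0.41 on both arrays where it was in Cy5. Hsp90ab1 was 1 of the genes the study used as a standard for its PCR plates.

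Hspa2, an HSP70 best known from male germ cells, was at 0.71, 0.71, 0.62 and 0.65 and rose 1.60 fold (log2 ratio 0.67, SE 0.05, adjusted p = 0.00231). Its second probe passed as well, at 0.82, 0.66, 0.59 and 0.22 (mean 0.57, adjusted p = 0.0231). This probe (mm7, chr12:74364402-74364461) is shown because HSP70 genes are alike in sequence and the match to others was not analysed here.
Hspa2 probe: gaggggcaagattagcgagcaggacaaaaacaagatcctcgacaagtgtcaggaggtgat
Both Hspa2 probes were higher on every array. Hspa12b, a distant HSP70 relative known from endothelium, was at 0.52, 0.42, 0.57 and 0.50 and rose 1.42 fold (log2 ratio 0.50, SE 0.06, adjusted p = 0.00576). Of 5 endothelial markers, Cdh5 and Pecam1 were at background in both genotypes, Emcn rose, Kdr fell and Tek did not pass the test, and their part in the Hspa12b value was not tested.

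The most used HSP70 genes did not pass the test. Hspa8, the constitutive cytosolic HSP70, was at -0.11, -0.22 and -0.51 on replicates 1 to 3 (mean -0.28, SE 0.11, adjusted p = 0.149), and its other probe was above 0 on replicates 1 and 2 (0.31 and 0.30) and below 0 on replicates 3 and 4 (-0.52 and -0.47). The array file places both Hspa8 probes on chromosome 5, which is not the chromosome of the gene in RefSeq, so signal from a copy elsewhere cannot be told apart from that of the gene. Hspa1a, the heat-inducible HSP70, was measured by its brightest probe on replicates 3 and 4 alone (0.24 on each, adjusted p = 0.18), and by its next brightest probe on all 4 arrays, at 0.00, -0.06, 0.04 and -0.08. Hspa1a has a near-identical copy, Hspa1b, which no probe name matched, so these values may hold both.

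Small heat shock proteins, which hold unfolded proteins without using ATP, gave 3 genes lower and 0 higher of 8 tested (class median -0.03). Over all genes, 12.3% fell. Hspb2, a family member known from muscle, was at -0.41, -0.43, -0.49 and -0.58 and fell 1.39 fold (log2 ratio -0.48, SE 0.06, adjusted p = 0.00712). Cryab, αB-crystallin, lies next to Hspb2 in RefSeq, and its brightest probe was at -0.52, -0.56, -0.34 and -0.39 (1.37 fold lower, log2 ratio -0.45, SE 0.07, adjusted p = 0.0107). Hspb1, which is also called HSP25 in mouse, was at -0.30, -0.23, -0.17 and -0.24 and fell 1.18 fold (log2 ratio -0.23, SE 0.06, adjusted p = 0.0391). All 3 genes were lower on 4 of 4 arrays, while the muscle markers above rose or did not pass, and the part of those markers in these values was not tested. The other Hspb2 probe, near background, had a mean of -0.02.

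The 2 Cryab probes disagreed. The dimmer one was above 0 on every array, at 0.47, 0.47, 0.15 and 0.13 (mean 0.31, SE 0.09, adjusted p = 0.0665). The array file places it 3100 bases before the brighter one on the same strand of chromosome 9 (mm7, chr9:50731758-50731817 and chr9:50734917-50734976). Because the call of Cryab depends on which is read, the brighter probe is shown whole and the dimmer one by 30 bases. The letters TATATAAG in the dimmer one are in capitals, and their role was not analysed. Whether both probes read the same transcript was not analysed either. The Hspb1 probe (chr5:134860337-134860524), whose 60 bases span 188 in the genome, is shown with the Cryab probes.
Cryab, brighter probe: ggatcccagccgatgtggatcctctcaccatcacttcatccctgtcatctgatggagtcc
Cryab, part of the dimmer probe: agaagactgcaTATATAAGgggccggctgg
Hspb1 probe: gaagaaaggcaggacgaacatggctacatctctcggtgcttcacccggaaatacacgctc
Of the other small heat shock proteins, Hspb8, a partner of Bag3 in autophagy, was above 0 on every array (mean 0.25, adjusted p = 0.0772), and Hspb3, Hspb6, Hspb7 and Hspb9 had means from -0.04 to 0.16.

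**Figure D2:**
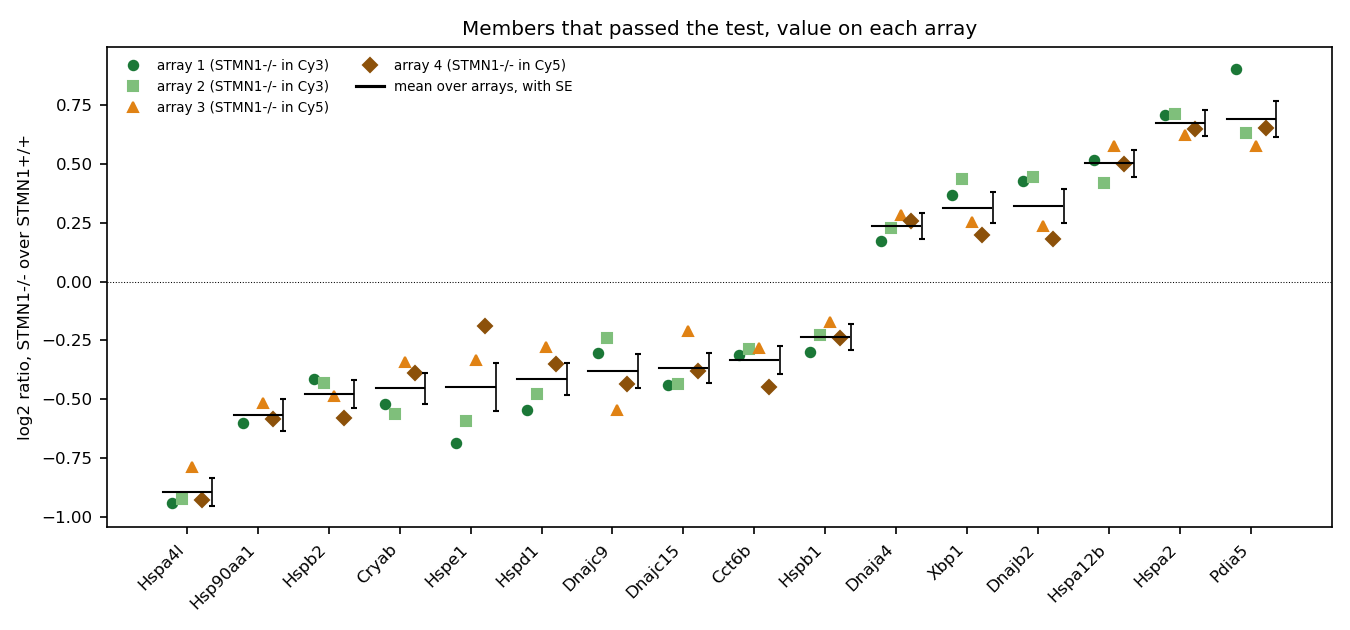
Log2 ratio of STMN1-/- over STMN1+/+ signal on each array (y axis) for the 16 members that passed the test, in order of their mean (x axis). Symbols are arrays, lines are means and bars are limma's SE, and each gene keeps 1 sign on every array measured.

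Cytosolic J-domain proteins, which hand clients to HSP70, gave 2 genes higher and 0 lower of 11 tested (class median -0.07). Over all genes, 13.4% rose. Dnajb2, known from neurons, was at 0.43, 0.45, 0.24 and 0.18 and rose 1.25 fold (log2 ratio 0.32, SE 0.07, adjusted p = 0.0345). Dnaja4 was at 0.17, 0.23, 0.28 and 0.26 and rose 1.18 fold (log2 ratio 0.24, SE 0.05, adjusted p = 0.0369). Dnajb1, the major stress-inducible J-domain partner of Hspa8 and Hspa1a, was at -0.17, -0.06, -0.05 and -0.19 and did not pass (adjusted p = 0.218). Dnaja1, Dnaja2, Dnajb4, Dnajb6 and Dnajc7 had means from -0.23 to -0.07, and a dimmer Dnajb4 probe passed on its own (log2 ratio -0.29, adjusted p = 0.0414). The rest of the class did not pass either, with means of -0.05 for Dnajb8, 0.10 for Dnajb3 and 0.11 for Dnajb5. None of the 5 BAG co-chaperones passed (0 calls by limma, 1 at an unadjusted p under 0.05, beside 6041 of all 14979 genes). Bag3, which links HSP70 to autophagy, was at 0.18, -0.03 and -0.16 on replicates 2 to 4.

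Among 13 tested J-domain proteins outside these compartments, Dnajc9 alone passed, where 25.8% of all genes did. This histone co-chaperone was at -0.31, -0.24, -0.55 and -0.43 and fell 1.30 fold (log2 ratio -0.38, SE 0.07, adjusted p = 0.0231). Its second probe (mm7, chr14:18044562-18044621) passed as well, at -0.24, -0.24, -0.59 and -0.52 (mean -0.40, adjusted p = 0.0313).
Dnajc9, second probe: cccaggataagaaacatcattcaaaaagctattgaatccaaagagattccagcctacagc

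The tubulin folding genes bear most directly on microtubules. The CCT ring is built of different subunits, and of the 9 subunit genes matched 8 were tested, since the Cct8 probe had no usable spot. All 8 had a mean below 0, beside 49.2% of all genes, with a class median of -0.19. Only 1 passed the test, where 25.8% of all genes did. The count below 0 was 7 after median centring or without replicate 3, and 6 without replicate 4. Cct6b, a CCT zeta subunit known from testis, was at -0.31, -0.28, -0.28 and -0.45 and fell 1.26 fold (log2 ratio -0.33, SE 0.06, adjusted p = 0.0187). Its probe (mm7, chr11:82800945-82801004) is shown, since the array has 1 probe for this gene and its match to the more widely used Cct6a was not analysed here.
Cct6b probe: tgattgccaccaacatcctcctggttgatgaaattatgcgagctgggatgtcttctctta
Its relative Cct6a was at -0.08, 0.01 and -0.63 on replicates 1, 2 and 4 (mean -0.23, SE 0.15, adjusted p = 0.356).

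Several of the remaining CCT subunits split by dye orientation. Cct5 was at -0.59 and -0.47 where STMN1-/- RNA was in Cy3 and at -0.10 and -0.05 where it was in Cy5 (mean -0.30, SE 0.12, adjusted p = 0.126). Cct7 was at -0.16, 0.04, -0.34 and -0.48 (mean -0.23, SE 0.10, adjusted p = 0.163). Cct3 changed sign with the dye, at 0.35 and 0.27 on replicates 1 and 2 and at -0.51 and -0.55 on replicates 3 and 4 (mean -0.11, SE 0.19, adjusted p = 0.724). Cct2 changed sign the other way, at -0.22, -0.29, 0.06 and 0.14 (mean -0.08, SE 0.10, adjusted p = 0.598). Tcp1, the alpha subunit, did not split and was at -0.18, -0.05, -0.21 and -0.17 (mean -0.15, SE 0.06, adjusted p = 0.129). Cct4 was at 0.07, 0.03, 0.07 and -0.18 (mean -0.0034, SE 0.07, adjusted p = 0.978).

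Dimmer probes of 2 subunits passed where the brighter one did not. The dimmer Cct4 probe was at -0.34, -0.47, -0.35 and -0.35 (mean -0.38, SE 0.06, adjusted p = 0.0115), and the dimmer Cct3 probe was at -0.49, -0.50, -0.13 and -0.53 (mean -0.41, SE 0.09, adjusted p = 0.0319). For Cct4 the difference by the brighter probe was smaller than its error. With the dye effect fitted as a second coefficient, 4 of the 8 subunits passed, all lower (Cct5, Cct6a, Cct6b and Cct7), in a fit in which 42.1% of all genes passed (20.3% lower).

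None of the 4 tubulin folding cofactors tested passed (0 calls by limma, 1 at an unadjusted p under 0.05, beside 6041 of all 14979 genes). Tbca, which takes up β-tubulin, was at -0.08, 0.10, -0.15 and -0.04. Tbcc, which triggers release of the finished dimer, was at -0.04, 0.03, 0.00 and 0.01. Tbcd, which holds β-tubulin in the assembly complex, was above 0 on every array, at 0.09, 0.16, 0.46 and 0.35 (mean 0.26, SE 0.08, adjusted p = 0.0813), and Tbce was at 0.06, 0.20, -0.11 and 0.04. Tbcb was matched by no probe name. Of 11 prefoldin subunits and other tubulin folding genes outside the rule, 1 fell, where 12.3% of all genes did. This was Pfdn4, at -0.62, -0.54, -0.34 and -0.20 (log2 ratio -0.42, SE 0.09, adjusted p = 0.0294).

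**Figure D3:**
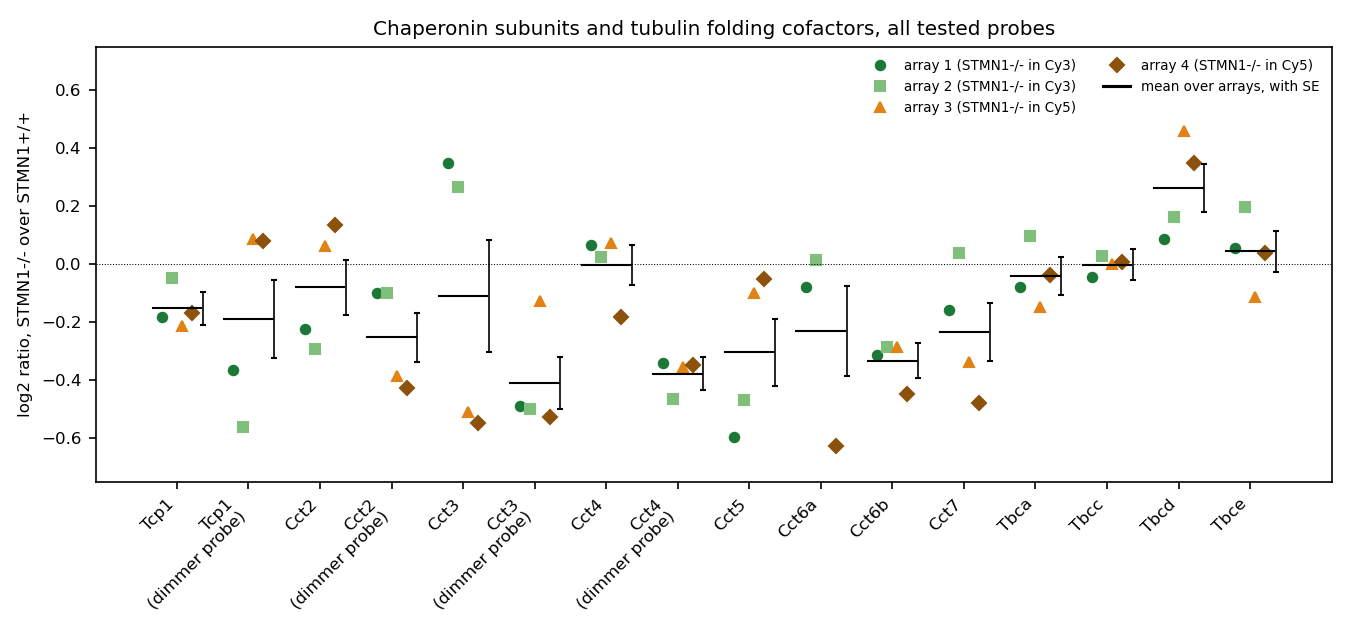
Log2 ratio of STMN1-/- over STMN1+/+ signal on each array (y axis) for every tested probe of the CCT chaperonin and the tubulin folding cofactors (x axis). Green symbols are arrays with STMN1-/- RNA in Cy3 and orange and brown ones arrays with it in Cy5, lines are means and bars limma's SE. Cct3 lies at 0.35 and 0.27 in one orientation and at -0.51 and -0.55 in the other, while the 4 values of Cct6b lie within -0.45 to -0.28.

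Of the 13 ER chaperones tested, 1 rose and 0 fell, beside 13.4% and 12.3% of all genes, and their median was -0.0044. Pdia5, a disulfide isomerase, was at 0.90, 0.63, 0.58 and 0.66 and rose 1.62 fold (log2 ratio 0.69, SE 0.08, adjusted p = 0.00521). Its single probe lies at chr16:35082252-35082311 (mm7).
Pdia5 probe: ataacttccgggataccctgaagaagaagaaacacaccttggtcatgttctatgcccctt
Dnajc1, an ER membrane J-domain protein, had all 3 tested probes above 0, and its dimmest tested probe passed, at 0.52, 0.58, 0.57 and 0.50 (log2 ratio 0.54, SE 0.05, adjusted p = 0.00394). Its brightest probe was at 0.54 and 0.48 with STMN1-/- RNA in Cy3 and at 0.05 and 0.07 with it in Cy5 (adjusted p = 0.135).

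Hspa5, Hsp90b1, Hyou1, Pdia4 and Pdia6, the ER chaperones followed on every array, did not pass the test. Hspa5 was at 0.11, 0.03 and -0.04 on replicates 2 to 4 but at -1.20 on replicate 1, for a mean of -0.27 (SE 0.24, adjusted p = 0.47). With normexp background correction and loess its mean was -0.06 (adjusted p = 0.822). Hsp90b1 was at -0.08, -0.13, -0.11 and -0.09 (mean -0.10, SE 0.05, adjusted p = 0.216). Hyou1, the large ER exchange factor, was at -0.10, -0.04, -0.13 and -0.23 (adjusted p = 0.202). Pdia4 was at 0.18, 0.27 and -0.33 on replicates 1 to 3 (adjusted p = 0.875), and Pdia6 at 0.09, 0.13, 0.05 and -0.01 (adjusted p = 0.462). Apart from Hspa5, the means of these genes lay between -0.12 and 0.06. Sdf2l1 was below 0 on every array (mean -0.20, SE 0.06, adjusted p = 0.0637), and Creld2 split by dye (0.14, 0.30, -0.25 and -0.23).

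The promoters of these ER genes were read in RefSeq windows of 250 bases before to 50 after each annotated start (GRCm38.p6), which covered 77 of the 95 members. The ER stress response element, spelled as CCAAT, 9 bases of any kind and CCACG and searched on both strands, stood in 5 of the 77 members (6.49%), namely Hspa5, Hsp90b1, Pdia6, Dnajc3 and Creld2, beside 0.137% of all 27025 genes. None of the 5 passed the test (0 higher and 0 lower), and their median log2 ratio was -0.01. Over all genes 13.4% rose and 12.3% fell, and of all 22 tested genes with the element 2 rose and 2 fell (median 0.04). The element of 4 of them is shown in 30 bases read along the gene's strand, with its fixed letters in capitals, because these genes share it. Means of the 4 lay between -0.27 (Hspa5, with its low value on replicate 1) and 0.08.
Hspa5, chr2:34772020-34772049: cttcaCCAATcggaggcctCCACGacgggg
Hsp90b1, chr10:86705632-86705661: caagcCCAATcgcaaggagCCACGcttcgg
Pdia6, chr12:17266486-17266515: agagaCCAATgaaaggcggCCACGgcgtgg
Dnajc3, chr14:118937822-118937851: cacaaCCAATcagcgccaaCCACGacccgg
A match to these letters is not a measured binding site.

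Of the 4 tested UPR regulators and ERAD genes, 1 rose, where 13.4% of all genes did. Xbp1, the transcription factor downstream of Ern1, was at 0.37, 0.43, 0.25 and 0.20 and rose 1.24 fold (log2 ratio 0.31, SE 0.07, adjusted p = 0.0291). Its only probe (mm7, chr11:5476970-5477029) gives 1 level for Xbp1 and does not measure its splicing.
Xbp1 probe: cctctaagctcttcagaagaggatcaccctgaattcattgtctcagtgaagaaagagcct
Atf6 was below 0 on every array with both probes. Its brighter probe was at -0.20, -0.22, -0.30 and -0.15 and just missed the threshold (log2 ratio -0.22, SE 0.06, adjusted p = 0.0508), while at the dimmer probe it passed with -0.53, -0.43, -0.22 and -0.27 (log2 ratio -0.37, SE 0.08, adjusted p = 0.0276). Ern1, which splices Xbp1, was at -0.15, -0.34, -0.12 and 0.09 (adjusted p = 0.327), and Edem1, which sends misfolded glycoproteins to degradation, was at 0.05, 0.03, 0.36 and 0.19 (adjusted p = 0.214).

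Genes of the same systems outside the rule were counted as well, beside the 13.4% of all genes that rose and the 12.3% that fell. These lists were chosen with earlier results of these data known. Of 7 other UPR transducers, 3 rose and 1 fell. Ddit3 (CHOP), a transcription factor of the Eif2ak3 branch, was at 0.87, 0.74, 0.83 and 0.79 and rose 1.75 fold (log2 ratio 0.81, SE 0.06, adjusted p = 0.00157). Eif2ak3 (PERK) itself rose 1.24 fold (log2 ratio 0.31, adjusted p = 0.0281), and of the proteases that cleave Atf6, Mbtps1 rose (log2 ratio 0.40, adjusted p = 0.044) and Mbtps2 fell (log2 ratio -0.43, adjusted p = 0.0119). Of 23 other ER folding and ERAD genes, 5 rose and 1 fell, with a median of 0.09. Sil1, the exchange factor of Hspa5, rose 1.40 fold (log2 ratio 0.49, adjusted p = 0.0053), Os9, a lectin of ERAD, 1.39 fold (adjusted p = 0.018), Herpud1, an ERAD scaffold, 1.37 fold (adjusted p = 0.00973), and Derl1, a channel component of ERAD, 1.35 fold (3 arrays, adjusted p = 0.0238). P4hb, the founding disulfide isomerase, also rose and the oxidase Ero1b fell. The difference between these lists and the ER chaperones was not tested.

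**Figure D4:**
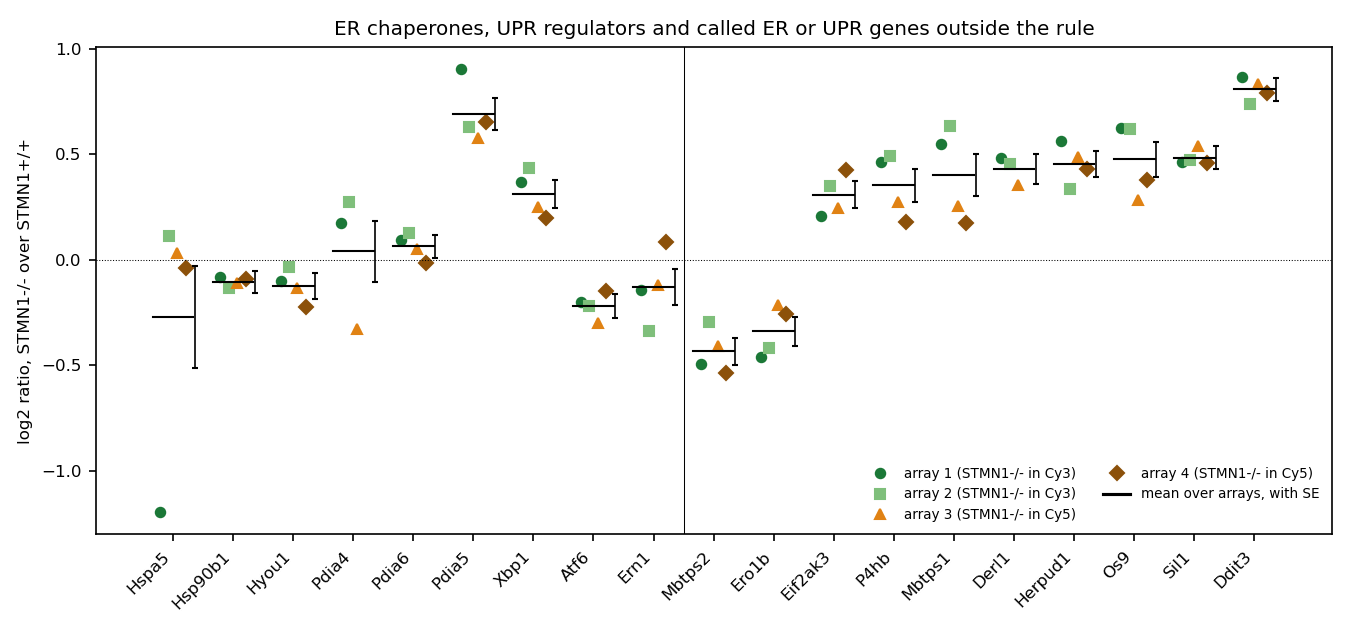
Log2 ratio of STMN1-/- over STMN1+/+ signal on each array (y axis) for named ER chaperones and UPR regulators (left of the vertical line) and for the ER and UPR genes outside the rule that passed the test (right of it). Symbols are arrays, lines are means and bars limma's SE. Hspa5 lies at -1.20 on array 1 and between -0.04 and 0.11 on the other arrays, while Ddit3 lies between 0.74 and 0.87.

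Mitochondrial chaperones gave 3 genes lower and 0 higher of 7 tested, where 12.3% of all genes fell. Their median was -0.16, with array medians between -0.21 and -0.10. Without replicate 1, 2 or 4, 0 of the 7 passed as lower, and without replicate 3, 2 did. In these fits the share of all genes that were lower also dropped, to between 5.63% and 6.43%. Hspd1, which forms the HSP60 folding chamber, was at -0.55, -0.48, -0.28 and -0.35 and fell 1.33 fold (log2 ratio -0.41, SE 0.07, adjusted p = 0.0157). Its second probe (mm7, chr1:55325929-55325988) passed as well, at -0.38, -0.35 and -0.67 on replicates 1 to 3 (mean -0.46, SE 0.10, adjusted p = 0.0407). Hspe1, the HSP10 lid of that chamber, was at -0.69, -0.59, -0.33 and -0.19 and fell 1.37 fold (log2 ratio -0.45, SE 0.10, adjusted p = 0.0352).
Hspd1, second probe: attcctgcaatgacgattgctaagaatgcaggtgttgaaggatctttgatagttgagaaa
Dnajc15, a J-domain protein of the inner membrane, was at -0.44, -0.44, -0.21 and -0.38 and fell 1.29 fold (log2 ratio -0.37, SE 0.07, adjusted p = 0.0188). Hspa9, the mitochondrial HSP70, was at 0.13, 0.03, -0.04 and -0.01 and did not pass (adjusted p = 0.764). Of 7 mitochondrial chaperones and proteases outside the rule, 1 passed, where 25.8% of all genes did. This was the protease Lonp1, which rose 1.42 fold (log2 ratio 0.50, SE 0.07, adjusted p = 0.0102).

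Hspd1 and Hspe1 lie next to each other in RefSeq and point away from each other, with 216 bases between the Hspe1 start and 1 of the 2 Hspd1 starts annotated. The heat shock element, spelled as GAA, TTC and GAA with 2 bases of any kind between neighbours and searched on both strands, stood in the windows of 4 of 77 members (5.19%), namely Hspd1, Hspe1, Hsph1 and Dnajb6, beside 0.662% of all genes. Hspd1 and Hspe1 share 1 stretch, in which a match on either strand overlaps to give 18 bases, in capitals, beginning 89 bases before the Hspe1 start (GRCm38.p6, chr1:55088053-55088082).
Hspe1 strand: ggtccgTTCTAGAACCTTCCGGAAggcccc
Of the 4 members with the element, 2 fell and 0 rose (median -0.32). The 2 that fell, Hspd1 and Hspe1, share the stretch shown, so they are not 2 separate sites. Dnajb6 was at -0.07 and Hsph1 at -0.24 without passing. Of all 63 tested genes with the element, 4 rose and 9 fell (median -0.05), beside 13.4% and 12.3% of all genes.

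The heat shock factors did not pass the test. The brightest Hsf1 probe was at 0.02, 0.14, 0.22 and 0.30 (mean 0.17, SE 0.07, adjusted p = 0.139), but the other 2 Hsf1 probes had means of -0.10 and -0.24 (adjusted p = 0.269 and 0.0547), so no direction can be given. Hsf2 was near background, with its brighter probe well above background on 1 STMN1-/- and 3 STMN1+/+ channels, and was at -0.21, -0.04, 0.01 and -0.35 (adjusted p = 0.252).

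Set side by side, the cytosolic chaperones had a median log2 ratio of -0.04 (array medians from -0.11 to 0.01, 36 genes), the tubulin folding genes -0.09 (from -0.11 to 0.03, 12 genes) and the ER chaperones -0.0044 (from -0.04 to 0.11, 13 genes). The ER median lay above the cytosolic one on 4 of 4 arrays, by 0.16, 0.11, 0.04 and 0.07. For the mean ratios without replicate 2 the order turned, at -0.0767 for ER and -0.0719 for cytosolic genes. The tubulin folding median lay within 0.05 of the cytosolic one on each array by the brightest probes. With the median over each gene's probes instead, the tubulin folding median was -0.18 and the cytosolic one -0.04. The SD of each median over the 4 arrays was 0.05 to 0.07, and the gaps were not tested.

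**Figure D5:**
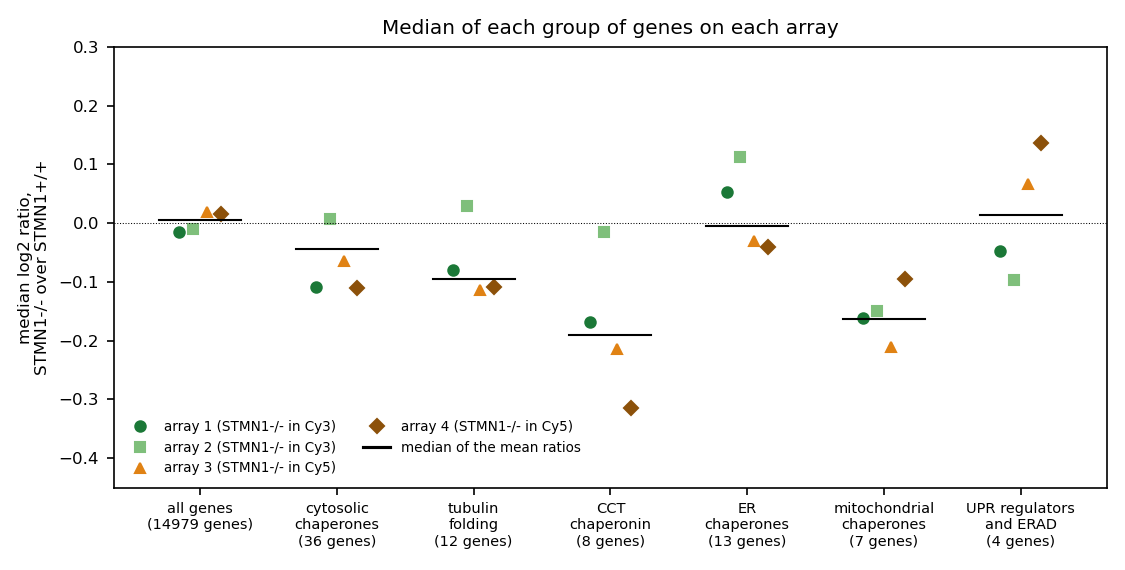
Median log2 ratio of STMN1-/- over STMN1+/+ signal on each array (y axis) for all named genes and for groups of chaperones (x axis, with the number of tested genes). Symbols are arrays and lines the median of the mean ratios. The mitochondrial medians lie between -0.21 and -0.10 on every array, while those of the ER chaperones lie on either side of 0.

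Fits on 3 arrays, in which 12.2% to 13.9% of all genes passed against 25.8% in the main fit, show which calls held with 1 array fewer. Such fits have less data and unbalanced dyes, so a call lost whichever array was left out does not rest on a single array. Hspa4l, Hspa2, Hspa12b, Hspb2 and Pdia5 passed whichever array was left out, with adjusted p-values up to 0.0138, 0.0193, 0.035, 0.039 and 0.0305. Cryab was lost without replicate 2 alone (adjusted p = 0.0507). Hspd1 and Dnajc15 were lost without replicates 1, 2 or 4 (adjusted p up to 0.0705 and 0.0812), and Hsp90aa1 was lost without replicates 1, 3 or 4 (up to 0.0664). Hsp90aa1 had no value on replicate 2, so leaving that array out removed none of its data. Hspe1, Dnajc9, Cct6b, Hspb1, Dnajb2, Dnaja4 and Xbp1 were lost whichever array was left out, with adjusted p-values from 0.0503 to 0.132. Every one of the 16 kept its sign in each of these fits. With normexp background correction and loess, 10 of the 16 passed and the calls of Hspb2, Hspa12b, Hspe1, Xbp1, Cct6b and Dnaja4 were lost (adjusted p = 0.0978, 0.0533, 0.0569, 0.0501, 0.0644 and 0.103).

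Of the 95 genes matched, 6 could not be tested. Dnajb7, Dnajb13, Dnajc5b, Dnajc6 and Pdia2 were not well above background on any array in either genotype, and Cct8 had no usable spot. Hspbap1 and Tmem208, an older name of which begins like a heat shock gene, were matched by their letters and are not heat shock proteins, and neither passed. Among the 46 genes with several tested probes, 28 had every probe on the same side of 0, and no gene (0) had probes that passed in both directions. For 32.6% of members the dye coefficient was larger than the mean ratio, beside 33.3% of all genes. Of 16 other HSP70 and HSP90 co-chaperones outside the rule, 1 fell, where 12.3% of all genes did. This was the HSP90 partner Chordc1 (log2 ratio -0.35, SE 0.06, adjusted p = 0.021).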

How the data were processed

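Intensity values were made by the authors with Agilent Feature Extraction 9.5.3.1, which per the file headers subtracted background, corrected dye bias on each array by LOWESS and put surrogate values in dim spots. The deposited log10 ratio of Cy5 over Cy3 was an alternative. The authors' deposited lists of log ratios and fold changes are their own comparison and were not used.

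Of 45018 spots per array, 43379 were not controls. Log2 ratios (STMN1-/- over STMN1+/+) came from the processed signals, turned by the dye labels. Outlier spots were left out and spots of a probe averaged. The 27759 probes flagged well above background in 1 or both channels of 1 or more arrays were kept, and the 27648 with values on at least 2 arrays went into a limma fit of the mean ratio against 0 (limma 3.58.1, R 4.3.3, two-sided, Benjamini-Hochberg, threshold 0.05), using data.table (1.17.8), jsonlite 2.0.0, Python 3.11.15, pandas 2.3.3, numpy 2.4.6 and matplotlib 3.10.9. The fit was also run on simulated data, made by shuffling each probe's deviations from its mean between arrays with random signs. The dye pattern of the real arrays was therefore not part of that check. All arrays share 1 slide and 1 scan, so neither could be a block. The number of arrays limits the precision.

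Members were named through RefSeq accessions (138 probes) or current symbols (37). Members, classes and the related and marker lists were chosen with earlier results of these data known. Every called member is named, with values on every array for up to 4 called members of each class and for a list of well known chaperones with all CCT and Tbc genes. Related lists are given by counts and up to 4 called genes with values. Other members were named after their values were seen. Alternatives were normexp (offset 50) with loess, the log10 ratio, median centring, scaling, looser and stricter filters, outliers kept, a dye coefficient, the methods' t-test against 0, the median over a gene's probes and each array left out. Probe positions are those of the array files (mm7) and promoters are RefSeq windows on GRCm38.p6. Probes were not matched to a genome.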

Additional observations from a re-analysis of the deposited data

Results flagged for a closer look

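Among the genes whose values are given on every array, 3 had 1 array far from the other arrays, which chance alone gives in about 1 of 20 groups of 4. The named members numbered 42, some with fewer than 4 values, so a few such genes are likely by chance alone. Hspa5 lay at -1.20 on replicate 1 and between -0.04 and 0.11 on replicates 2 to 4, where the STMN1-/- RNA was in Cy3 on replicate 2 as well. Hspa4l lay at -0.79 on replicate 3 and between -0.94 and -0.92 on the other arrays, all of them well below 0. Cct6b lay at -0.45 on replicate 4 and between -0.31 and -0.28 on the others.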

How the results depend on the processing

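The main counts were 6 members higher and 10 lower. Members higher numbered 3 with normexp and loess (5.34% of all genes were higher there), 3 with no filter on dim probes (6.63%) and 11 with the dye coefficient (21.8%). Members lower numbered 11 with normexp and loess (5.52% of all genes), 6 with no filter (5.86%), 16 with the filter on all 4 arrays (15.4%) and 26 with the dye coefficient (20.3%), so calls over all genes moved with the setting too. With 1 array left out, 3 members were higher in every fit (6.58% to 7.47% of all genes) and 3 to 5 lower (5.63% to 6.43%). The median of the tubulin folding genes was -0.18 when the median over each gene's probes was taken, against -0.09, and with 1 array left out the medians ranged from -0.07 to -0.05 for cytosolic, -0.08 to 0.01 for ER and -0.14 to -0.04 for tubulin folding genes. Other settings left the medians within the spread between arrays and the counts within 1.5 times, and none turned the sign of a named member that passed the test. With the dye coefficient, all 16 called members passed, and Hspa8, Cct5, Cct6a, Cct7, Tbcd, Hsf1 and Atf6 passed as well. Atf6 also passed with normexp, the log10 ratio, the filter on all 4 arrays and the methods' t-test, which added Hsp90b1 and Hspa1a and lost Hspe1, Dnajb2, Dnajc9 and Xbp1. The Hspa1a call in that t-test rests on 2 arrays with near-equal values (0.24 on each). The cause of these shifts was not tested. Each ratio pairs the genotypes within an array, so the fit of the mean ratio is already paired, and a further replicate block could not be fitted. With the dyes balanced, the dye effect cancels in the mean ratio of a probe measured on all 4 arrays but adds to its spread unless it is fitted. The limit is the number of arrays, which may share RNA.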
